A study of Mus musculus with 14 samples.

Results

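The urea cycle and amino acid breakdown genes of the liver were followed across 14 mouse livers. They are 37 genes, chosen by symbol from the 17656 genes in the deposited tables by their known roles, with earlier results of these data known. All 37 were found in the tables, and all 37 passed the filter on low values in every comparison below. By the step they serve, they hold 7 genes of the urea cycle, 2 of glutamine, 4 of phenylalanine and tyrosine, 4 of tryptophan, 6 of methionine, 5 of serine, glycine and threonine, 2 of alanine and aspartate, 3 of proline and ornithine, 3 of histidine and 1 of lysine metabolism.

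RNA of whole liver was sequenced from 3 WT and 3 Ythdf1-/- mice given saline and from 4 WT and 4 Ythdf1-/- mice given concanavalin A (ConA) at 8 mg/kg. KO stands below for the mice labelled Ythdf1-/-, which by their label lack the N6-methyladenosine reader YTHDF1 in all tissues and were made with CRISPR/Cas9 on a C57BL/6 background. All mice were 8 weeks old, were injected into the tail vein and gave their livers 8 h later, and each library is 1 mouse. ConA is a plant lectin that activates T cells and gives an immune-mediated hepatitis within hours. The comparisons ask how the livers of each genotype changed after ConA and whether the loss of YTHDF1 altered this.

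In hepatocytes, the urea cycle turns ammonia and the nitrogen of aspartate into urea, with its first steps in the mitochondrion and its later steps in the cytosol. Hepatocytes around the portal vein carry the urea cycle and glutaminase, while those around the central vein carry glutamine synthetase and ornithine aminotransferase. The other enzymes take single amino acids apart, and most of them are far more abundant in hepatocytes than in other cells, which is why they serve as marks of a mature liver.

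Levels are TPM, transcripts per 1000000 after correction for gene length, which allows levels of different genes to be set side by side. Changes are log2 fold changes of TPM + 1 with their standard error. A change is called where limma gave it an adjusted p (Benjamini-Hochberg, over all genes tested) under 0.05. Ythdf1 itself stood at 12.0 to 13.9 TPM (WT) and 18.4 to 20.8 TPM (KO) with saline, and at 18.7 to 25.6 TPM (WT) and 15.5 to 26.2 TPM (KO) with ConA. It was thus not lower in KO than in WT livers. The part of the gene that was deleted is not given in the sources used here, so whole-gene TPM does not check the genotype labels. WT saline replicates 2 and 3 were close to each other. Over the 37 genes their median difference was 0.0385 on the log2 scale, against 0.0902 to 0.590 in the 17 other pairs of mice of 1 group. Results against WT saline were therefore also computed with these 2 mice averaged into 1. On the second principal component, replicate 3 of WT ConA (-41.1) and of KO ConA (-19.7) was separate from the 6 other mice given ConA (-0.0459 to 17.7).

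In the saline mice, the 37 genes made up 2.87% to 3.64% of all TPM in WT and 3.10% to 3.15% in KO livers. In the ConA mice they made up 1.37% to 2.07% in WT and 1.62% to 1.78% in KO livers, so that no ConA liver reached the lowest saline liver. Over the same groups, 18 acute-phase genes, which encode plasma proteins that the inflamed liver secretes, held 2.36% to 2.65% of all TPM in WT and 1.80% to 2.10% in KO livers with saline, and 22.02% to 26.3% in WT and 25.3% to 26.0% in KO livers with ConA. TPM adds up to a fixed total in each library, and the part of this growth in the lower levels of other genes was not tested. After rescaling, by the median ratio of each library to the geometric mean of all 14, WT livers still had 26 lower and 2 higher calls, with a median change of -1.18 over the 37 genes.

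In WT livers ConA lowered 26 of the 37 genes and raised 2, Tat and Sdsl. Of all 10768 genes tested, 53% were called in either direction, 31% lower and 22% higher, so that the 37 genes held a larger share of lower calls (70.3%) and a smaller share of higher ones (5.41%). Of the lower calls, 20 members fell by a log2 fold change of 1 or more, which 14% of all genes tested did. The median log2 fold change was -1.27 over the 37 genes and -0.07 over all genes. The 4 ConA mice lay below the 3 saline mice without overlap for 26 members, against 34.7% of all genes, and above them for 2, against 23.3%. Of the called genes Mat1a overlapped, and of the rest Tdo2 did not. The count of called members was 27 with WT saline replicates 2 and 3 averaged and 29 without WT ConA replicate 3. In a tissue sample, fewer hepatocytes and less RNA per hepatocyte cannot be told apart.

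In KO livers ConA lowered 26 of the 37 genes and raised 6, Sdsl, Slc25a15, Tat, Aass, Glul and Got1. Of all 10988 genes tested, 64.6% were called, 30.7% lower and 33.9% higher. Again 20 members fell by a log2 fold change of 1 or more, against 15.7% of all genes. The median log2 fold change was -1.14 over the 37 genes and 0.07 over all genes. The groups did not overlap for 26 lower and 6 higher members, against 31.5% and 32.8% of all genes. Of the called genes Aass overlapped, and of the rest Nags did not. After rescaling, the calls of Glul (adjusted p = 0.112) and Got1 (adjusted p = 0.125) were lost, which left 4 higher and 26 lower. In the fit over all 14 libraries 28 members were called, 3 higher and 25 lower, without Slc25a15 (adjusted p = 0.061), Got1 (0.211), Aass (0.0808) and Oat (0.144).

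**Figure D1:**
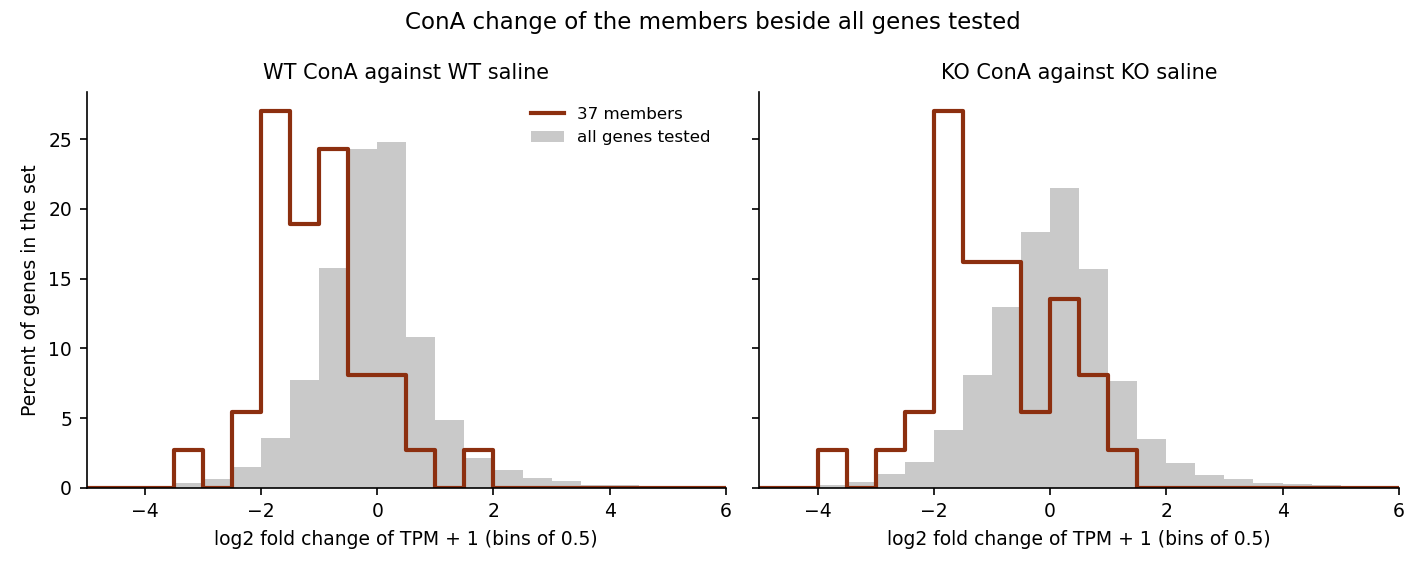
Distribution of the log2 fold changes of TPM + 1 after ConA in WT (left) and KO livers (right), in bins of 0.5, as the percent of all genes tested (grey bars) and of the 37 genes (red line), with the axis ending at -5 and 6. The 37 genes lie mostly below 0, with medians of -1.27 and -1.14, while all genes center near 0.

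Side by side, 24 members were lower in both genotypes after ConA and 2, Tat and Sdsl, were higher in both. Over all 10586 genes tested in both comparisons, 24.5% were lower in both, against 64.9% of the members. Mat1a and Gnmt were called in WT livers alone, and Arg1, Slc25a15, Glul, Sds, Got1 and Aass in KO livers alone, which does not by itself show that the genotypes differ. Nags, Tdo2 and Kmo were called in neither. No member was called in opposite directions. The changes in the 2 genotypes had a Pearson r of 0.85 and a Spearman rho of 0.83 over the 37 genes, and 0.90 and 0.87 over all genes. This is a description across genes, which are not independent of each other.

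Of the 7 urea cycle genes, 4 were called in WT livers after ConA (57.1%, against 53% of all genes) and 6 in KO livers (85.7%, against 64.6%). All 4 WT calls and 5 of the KO calls were lower. In the WT saline livers Ass1 was the most abundant of them and Nags the least. The entry step is carried by Cps1, the mitochondrial carbamoyl phosphate synthetase. Cps1 stood at 545, 738 and 772 TPM in the WT saline mice, 534, 442 and 625 TPM in the KO saline mice, 434, 399, 173 and 203 TPM in the WT ConA mice and 339.7, 319, 260.1 and 316 TPM in the KO ConA mice. Every ConA liver was below every saline liver, and WT ConA replicates 3 and 4 were well below replicates 1 and 2. Cps1 fell in both genotypes (-1.27 ± 0.32, adjusted p = 0.00865 in WT and -0.78 ± 0.14, adjusted p = 0.000658 in KO livers). Otc, the ornithine transcarbamylase that forms citrulline, stood at 552, 514 and 528 TPM in the WT saline mice, 527, 503 and 472 TPM in the KO saline mice, 209, 174, 144 and 182 TPM in the WT ConA mice and 124, 156, 164 and 145 TPM in the KO ConA mice. It was low in all 8 ConA livers, with the largest fall of the cycle in both genotypes (-1.59 ± 0.14, adjusted p = 2.06e-05 in WT and -1.77 ± 0.12, adjusted p = 5.51e-07 in KO).

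The cytosolic steps begin with Ass1, which joins citrulline and aspartate, and Asl, which releases arginine. Ass1 stood at 3906, 4432 and 4193 TPM in the WT saline mice, 4579, 4574 and 5042 TPM in the KO saline mice, 2742, 2534, 2490.2 and 1192 TPM in the WT ConA mice and 1995, 1788, 2012 and 1836 TPM in the KO ConA mice. WT ConA replicate 4 was far below the other 3 WT ConA mice, and all ConA mice were below all saline mice. Ass1 fell in both genotypes (-0.97 ± 0.27, adjusted p = 0.013 in WT and -1.31 ± 0.12, adjusted p = 4.08e-06 in KO livers). Of the 50-base stretches of its transcript, 44.7% occur in no other gene, so that reads may be shared with its copy Gm5424. Asl stood at 1040.2, 1415 and 1377 TPM in the WT saline mice, 1540.1, 1310.4 and 1359 TPM in the KO saline mice, 521, 551, 609 and 376 TPM in the WT ConA mice and 421, 371, 514 and 507 TPM in the KO ConA mice. The groups did not overlap, and Asl fell in both genotypes (-1.32 ± 0.19, adjusted p = 0.000322 in WT and -1.64 ± 0.14, adjusted p = 2.74e-06 in KO livers).

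The last step, the release of urea by the liver arginase Arg1, moved less. Arg1 stood at 2624, 2319 and 2269 TPM in the WT saline mice, 3395, 2863 and 2996 TPM in the KO saline mice, 2740.3, 1948, 1787 and 1249 TPM in the WT ConA mice and 1807, 2137, 1284 and 1808 TPM in the KO ConA mice. WT ConA replicate 1 lay above all 3 WT saline mice and replicate 4 far below them, and the WT change was not called (-0.37 ± 0.23, adjusted p = 0.207). Without WT ConA replicate 1 it was called lower (-0.56, adjusted p = 0.0389). In KO livers all 4 ConA mice were below the 3 saline mice, and Arg1 fell (-0.83 ± 0.17, adjusted p = 0.00138). Nags makes N-acetylglutamate, the activator of the entry enzyme. Nags stood at 48.2, 62.8 and 58.7 TPM in the WT saline mice, 46.6, 47.4 and 44.5 TPM in the KO saline mice, 52.0, 59.4, 58.7 and 55.6 TPM in the WT ConA mice and 52.7, 56.5, 56.2 and 51.7 TPM in the KO ConA mice. It was called in neither genotype (0.00 ± 0.13, adjusted p = 0.984 in WT and 0.23 ± 0.11, adjusted p = 0.0788 in KO). Of the 50-base stretches of Nags, 80.0% occur in no other gene.

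Slc25a15, the carrier that brings ornithine back into the mitochondrion, was the 1 urea cycle gene that rose, and it did so in KO livers. Slc25a15 stood at 91.9, 131 and 140.2 TPM in the WT saline mice, 99.0, 97.1 and 106 TPM in the KO saline mice, 96.5, 181, 53.4 and 48.4 TPM in the WT ConA mice and 217, 187, 115 and 199 TPM in the KO ConA mice. The WT ConA mice ran from well below to above the WT saline mice, and the WT change was not called (-0.53 ± 0.41, adjusted p = 0.304). Without WT ConA replicate 2, the highest, it was called lower (-0.91, adjusted p = 0.0273). All 4 KO ConA mice were above the 3 KO saline mice (0.79 ± 0.19, adjusted p = 0.00394). Summed over the 7 genes, WT mice held 8807 to 9612 TPM with saline and 3306 to 6795 TPM with ConA, and KO mice 9837 to 10721 TPM and 4405 to 5014 TPM.

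**Figure D2:**
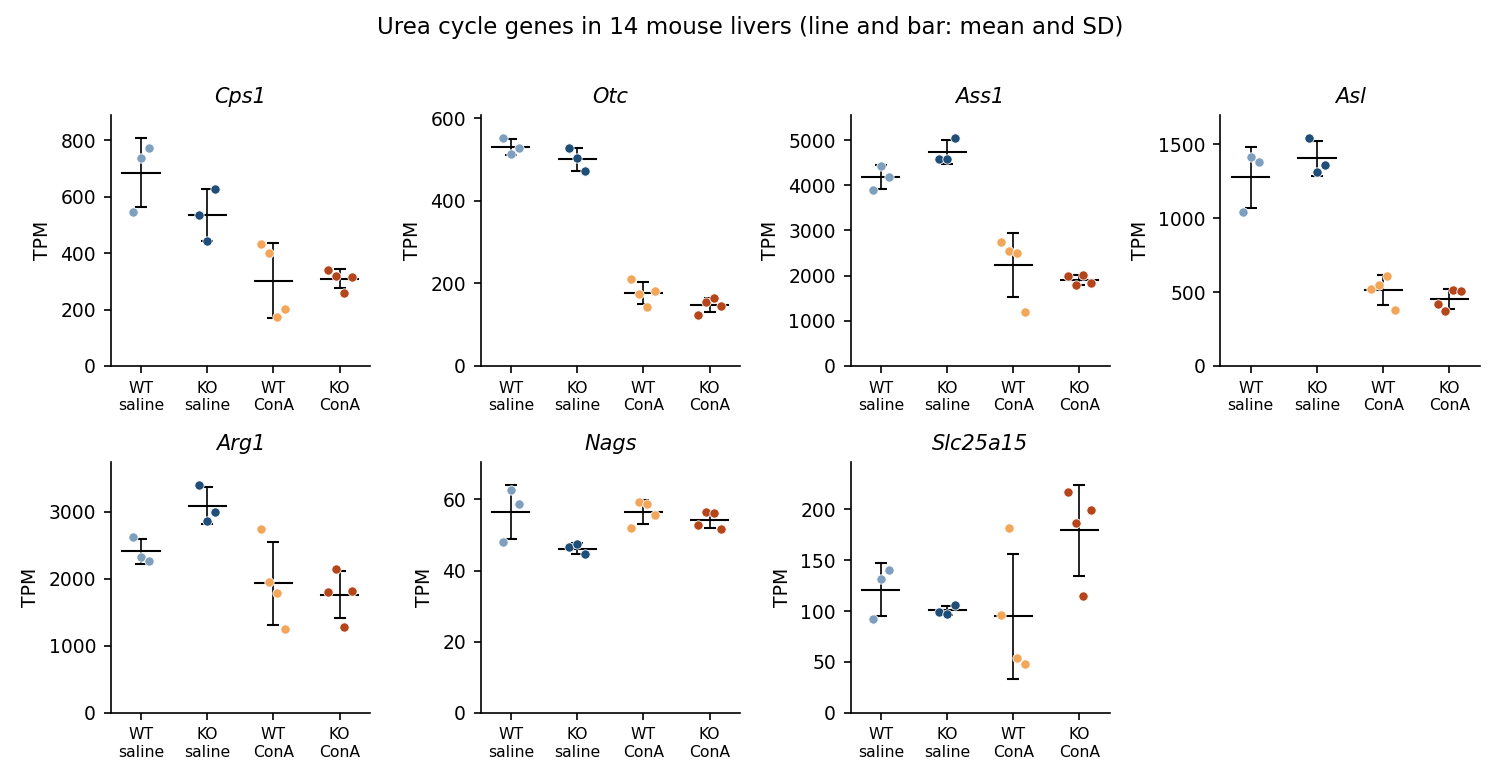
TPM of the 7 urea cycle genes in each of the 14 livers by group, with the mean as a line and the SD as a bar. Otc, Ass1, Asl and Cps1 are lower in every ConA liver than in any saline liver, Nags stays between 44.5 and 62.8 TPM, and Slc25a15 in WT ConA spreads from 48.4 to 181 TPM.

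The 2 glutamine genes sit at opposite ends of the liver lobule and moved differently. Gls2, the glutaminase of periportal hepatocytes, stood at 259, 309.8 and 306 TPM in the WT saline mice, 298, 317 and 325 TPM in the KO saline mice, 82.6, 94.7, 78.5 and 58.4 TPM in the WT ConA mice and 73.0, 72.5, 84.1 and 87.1 TPM in the KO ConA mice. All 8 ConA mice were far below the saline mice, and Gls2 fell in both genotypes (-1.90 ± 0.17, adjusted p = 2.18e-05 in WT and -1.98 ± 0.11, adjusted p = 1.47e-07 in KO livers). Glul, the glutamine synthetase of pericentral hepatocytes, stood at 578, 816 and 811 TPM in the WT saline mice, 536, 621 and 599 TPM in the KO saline mice, 648, 659, 545 and 774 TPM in the WT ConA mice and 768, 747, 738 and 782 TPM in the KO ConA mice. The WT groups overlapped, and WT Glul was not called (-0.16 ± 0.17, adjusted p = 0.466). The 4 KO ConA mice were above the 3 KO saline mice (0.38 ± 0.11, adjusted p = 0.0093), a call that rescaling removes, as given above. Copies of Glul share part of its sequence, with 85.0% of its 50-base stretches found in no other gene.

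Of the 4 genes of tyrosine breakdown, the first enzyme rose and the 3 after it fell, in both genotypes. Tat, the tyrosine aminotransferase that opens the pathway and is known to be induced by glucocorticoids, was at 726 to 1154 TPM with saline and 1272 to 2101 TPM with ConA in WT mice, and at 1060.4 to 1321 and 1622 to 2015 TPM in KO mice. It rose by 0.78 ± 0.22 (adjusted p = 0.0129) in WT and by 0.56 ± 0.13 (adjusted p = 0.00305) in KO livers, with no overlap between saline and ConA mice. Without WT saline replicate 1, the lowest, the WT call was lost at an adjusted p of 0.0504. Hpd, the next enzyme, stood at 3002, 3401 and 3287 TPM in the WT saline mice, 3278, 3376 and 3217 TPM in the KO saline mice, 1089, 1229.6, 1308 and 829.8 TPM in the WT ConA mice and 1121, 858, 1476 and 1273 TPM in the KO ConA mice. Hgd, which opens the ring of homogentisate, stood at 451, 624 and 615 TPM in the WT saline mice, 415, 428 and 557 TPM in the KO saline mice, 159, 141, 97.2 and 67.5 TPM in the WT ConA mice and 97.7, 101, 145 and 151 TPM in the KO ConA mice. For both, every ConA mouse was below every saline mouse. Hpd fell in both genotypes (-1.55 ± 0.17, adjusted p = 5.82e-05 in WT and -1.50 ± 0.17, adjusted p = 2.15e-05 in KO livers), as did Hgd (-2.33 ± 0.28, adjusted p = 0.000119 and -1.92 ± 0.18, adjusted p = 5.52e-06). Fah, the last enzyme, was at 761 to 853 TPM with saline and 442 to 567 TPM with ConA in WT mice (-0.71 ± 0.13, adjusted p = 0.00122), and at 859 to 958 and 378 to 424 TPM in KO mice (-1.15 ± 0.11, adjusted p = 4.69e-06).

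The 3 histidine genes fell together in both genotypes. Hal, the histidine ammonia-lyase that starts the pathway, stood at 207, 215 and 211 TPM in the WT saline mice, 215, 217 and 297 TPM in the KO saline mice, 65.2, 56.2, 37.03 and 20.3 TPM in the WT ConA mice and 44.7, 46.6, 30.8 and 38.0 TPM in the KO ConA mice. WT ConA replicate 4 was the lowest of all mice. Hal fell in both genotypes (-2.34 ± 0.34, adjusted p = 0.000357 in WT and -2.57 ± 0.17, adjusted p = 3.98e-07 in KO livers), among the largest falls of the 37 genes. Uroc1, which acts on the product of Hal, stood at 219.9, 242 and 231 TPM in the WT saline mice, 250.0, 265 and 235 TPM in the KO saline mice, 87.8, 70.6, 73.4 and 53.5 TPM in the WT ConA mice and 54.3, 59.5, 69.8 and 69.0 TPM in the KO ConA mice. The saline and ConA mice were far apart, and Uroc1 fell in both genotypes (-1.70 ± 0.16, adjusted p = 3.39e-05 in WT and -1.97 ± 0.12, adjusted p = 2.71e-07 in KO livers). Ftcd, the last enzyme, which passes a one-carbon unit to folate, changed by -1.22 ± 0.15 (adjusted p = 0.000148) in WT and by -1.09 ± 0.15 (adjusted p = 7.18e-05) in KO livers.

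Promoters of Hal and Hgd are printed below because, after Cth, these 2 genes had the largest falls in WT livers, and that of Tat because it rose. RefSeq promoter windows (GRCm38.p6, 250 bases before to 50 bases after the start) matched 27 of the 37 genes, and the bases before the start are shown, 5′ to 3′ on the strand of the gene. Cps1, Asl, Arg1, Gls2, Kynu, Mat1a, Cth, Sds, Sdsl and Gpt had no entry. Capitals mark matches on either strand to the 10 motifs searched.

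Hal (chr10:93488518-93488767, plus strand): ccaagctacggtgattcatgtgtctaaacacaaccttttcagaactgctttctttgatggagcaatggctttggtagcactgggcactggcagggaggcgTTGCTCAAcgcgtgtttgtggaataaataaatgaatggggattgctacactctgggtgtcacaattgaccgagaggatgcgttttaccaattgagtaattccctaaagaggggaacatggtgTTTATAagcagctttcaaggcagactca

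Hgd (chr16:37579903-37580152, plus strand): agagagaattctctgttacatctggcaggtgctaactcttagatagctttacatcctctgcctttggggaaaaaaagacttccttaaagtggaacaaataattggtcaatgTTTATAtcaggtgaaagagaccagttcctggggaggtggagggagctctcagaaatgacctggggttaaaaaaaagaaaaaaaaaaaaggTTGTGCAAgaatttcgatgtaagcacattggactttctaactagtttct

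Tat (chr8:109990186-109990435, plus strand): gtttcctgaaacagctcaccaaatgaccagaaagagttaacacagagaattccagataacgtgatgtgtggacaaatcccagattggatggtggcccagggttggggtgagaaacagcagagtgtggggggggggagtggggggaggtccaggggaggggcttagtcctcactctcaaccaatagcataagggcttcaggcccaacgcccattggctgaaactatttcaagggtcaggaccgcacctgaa

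Hal holds a C/EBP-type TTGCNNAA from base 101 and, on the opposite strand, the letters of a TATA box, TATAAA, from base 223. Hgd holds TTGCNNAA on the opposite strand from base 202, and again past the start, outside the stretch shown, and TATAAA on the opposite strand from base 112. Tat holds none of the 10 motifs in its window. TTGCNNAA was found in 3 of the 27 windows (Aass, Hal and Hgd), against 10.75% of all 27025 windows, and its palindrome TTGCGCAA, which is a case of TTGCNNAA, in 0 against 0.19%. TATAAA was found in 4 (Ftcd, Hal, Hgd and Tdo2) against 14.16%, and the E-box CACGTG in 3 (Ass1, Cbs and Gcat) against 7.24%. The glucocorticoid receptor half-site AGAACA was found in 4 (Agxt, Gcat, Haao and Kmo) against 19.02%, the HNF1 half-site GTTAAT in 2 (Ftcd and Haao) against 7.20%, and the STAT letters TTCNNNGAA in Prodh against 8.47%. The HNF4 letters CAAAGTCCA (0.48% of all windows), the FOX letters TGTTTAC (3.55%) and the CREB letters TGACGTCA (1.88%) were in 0 of the 27. These are matches of letters, counted on both strands, and not binding sites.

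In the tryptophan pathway, Kynu and Haao fell, and Tdo2 and Kmo, which act before them, were not called. Kynu, the kynureninase, stood at 104, 105 and 105 TPM in the WT saline mice, 89.0, 86.3 and 87.2 TPM in the KO saline mice, 37.8, 34.2, 21.4 and 17.5 TPM in the WT ConA mice and 24.8, 24.1, 33.3 and 36.1 TPM in the KO ConA mice. Haao, which acts after it on the way to quinolinate, stood at 747, 775 and 735 TPM in the WT saline mice, 837, 926 and 870.3 TPM in the KO saline mice, 325, 287, 412 and 174 TPM in the WT ConA mice and 176, 174, 245 and 183 TPM in the KO ConA mice. In both genes all ConA mice were below all saline mice. Kynu fell in both genotypes (-1.95 ± 0.25, adjusted p = 0.000175 in WT and -1.55 ± 0.15, adjusted p = 7.88e-06 in KO livers), as did Haao (-1.39 ± 0.25, adjusted p = 0.00131 and -2.18 ± 0.14, adjusted p = 2.91e-07). Tdo2, the tryptophan dioxygenase of the first step, stood at 922, 1044 and 1052 TPM in the WT saline mice, 711, 720.2 and 805 TPM in the KO saline mice, 714, 864, 333 and 790.1 TPM in the WT ConA mice and 931, 840.4, 586 and 740 TPM in the KO ConA mice. WT ConA replicate 3 was far below the rest, and the WT change was not called (-0.66 ± 0.29, adjusted p = 0.0879). Without that mouse it was called, at an adjusted p of 0.0232 and a log2 fold change of -0.35. The KO value was 0.04 ± 0.16 (adjusted p = 0.849). Kmo, the kynurenine monooxygenase, gave -0.21 ± 0.21 (adjusted p = 0.413) in WT and 0.05 ± 0.13 (adjusted p = 0.773) in KO livers.

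All 6 methionine genes fell in WT livers, and 4 of them in KO livers. Cth, the cystathionine gamma-lyase that releases cysteine, had the largest fall of the 37 genes in both genotypes. Cth stood at 519, 824 and 820.1 TPM in the WT saline mice, 555, 610.4 and 583 TPM in the KO saline mice, 116, 102, 46.4 and 63.0 TPM in the WT ConA mice and 46.8, 37.5, 60.6 and 55.5 TPM in the KO ConA mice. No ConA liver held more than 116 TPM, and Cth fell in both genotypes (-3.18 ± 0.31, adjusted p = 3.7e-05 in WT and -3.54 ± 0.16, adjusted p = 2.56e-08 in KO livers). Bhmt, which remethylates homocysteine with betaine, stood at 3201, 4727 and 4778 TPM in the WT saline mice, 3087, 2945 and 2331 TPM in the KO saline mice, 2167, 989, 1183 and 606 TPM in the WT ConA mice and 665, 719, 989.8 and 940.1 TPM in the KO ConA mice. WT ConA replicate 1 kept more than the other 7 ConA mice. Bhmt fell in both genotypes (-1.90 ± 0.37, adjusted p = 0.00196 in WT and -1.76 ± 0.17, adjusted p = 6.37e-06 in KO livers). Of its 50-base stretches, 38.5% occur in no other gene. Ahcy, the adenosylhomocysteinase, fell in both genotypes (-1.33 ± 0.12, adjusted p = 2.2e-05 in WT and -1.56 ± 0.13, adjusted p = 2.04e-06 in KO livers), with 23.0% such stretches. Cbs, which feeds Cth, changed by -0.87 ± 0.23 (adjusted p = 0.0099) and -0.57 ± 0.11 (adjusted p = 0.000734).

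The other 2 methionine genes were called in WT livers alone. Gnmt, which uses up S-adenosylmethionine, stood at 1323, 2001 and 1885 TPM in the WT saline mice, 928, 913 and 1268 TPM in the KO saline mice, 1062, 982, 936 and 565 TPM in the WT ConA mice and 739.9, 669, 1641 and 1106 TPM in the KO ConA mice. The KO saline and KO ConA mice overlapped and gave -0.07 ± 0.27 (adjusted p = 0.827), while WT Gnmt changed by -0.99 ± 0.24 (adjusted p = 0.0064). Mat1a, the liver enzyme that makes S-adenosylmethionine, was at 1744 to 2699 TPM with saline and 907 to 1785 TPM with ConA in WT mice, and at 1843 to 1879.9 and 1337 to 2373 TPM in KO mice. Its WT value (-0.84 ± 0.27, adjusted p = 0.0239) was not called with WT saline replicates 2 and 3 averaged (adjusted p = 0.0904), without replicate 2 (0.0904) or 3 (0.0882) of WT saline or without WT ConA replicate 4 (0.0567). The KO value was -0.04 ± 0.17 (adjusted p = 0.848).

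Among the serine, glycine and threonine genes, the neighbors Sds and Sdsl on chromosome 5 went different ways. Sdsl, a serine dehydratase-like enzyme at chr5:120458193-120472825 (RefSeq, GRCm38.p6), stood at 19.4, 24.7 and 21.2 TPM in the WT saline mice, 27.1, 22.8 and 30.6 TPM in the KO saline mice, 92.0, 53.8, 78.2 and 61.1 TPM in the WT ConA mice and 68.1, 85.3, 51.3 and 68.3 TPM in the KO ConA mice. All ConA mice were above all saline mice, and Sdsl rose in both genotypes (1.64 ± 0.19, adjusted p = 0.00011 in WT and 1.301 ± 0.17, adjusted p = 6.34e-05 in KO livers). Sds, the serine dehydratase at chr5:120476547-120483932 and the more abundant gene of the pair, stood at 582, 502 and 481 TPM in the WT saline mice, 899, 689.5 and 688 TPM in the KO saline mice, 855, 489.6, 727 and 431 TPM in the WT ConA mice and 329.6, 397, 284 and 362 TPM in the KO ConA mice. WT ConA mice spread around the WT saline mice (0.21 ± 0.23, adjusted p = 0.475), while all 4 KO ConA mice were below all KO saline mice (-1.14 ± 0.15, adjusted p = 5.34e-05). Sds shares sequence with other genes, with 71.1% of its stretches in no other. Gldc, the decarboxylase of the glycine cleavage system, stood at 38.6, 41.2 and 40.1 TPM in the WT saline mice, 40.9, 35.1 and 45.5 TPM in the KO saline mice, 15.9, 12.0, 8.92 and 11.3 TPM in the WT ConA mice and 12.4, 13.2, 8.43 and 8.80 TPM in the KO ConA mice. All ConA mice were below all saline mice, and Gldc fell in both genotypes (-1.68 ± 0.18, adjusted p = 5.81e-05 in WT and -1.84 ± 0.18, adjusted p = 6.78e-06 in KO livers). Agxt, the peroxisomal enzyme that removes glyoxylate, changed by -1.46 ± 0.30 (adjusted p = 0.00287) and -1.14 ± 0.22 (adjusted p = 0.000807). Gcat, an enzyme of threonine breakdown, changed by -0.63 ± 0.14 (adjusted p = 0.00442) and -0.89 ± 0.13 (adjusted p = 0.000108).

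The aminotransferases of alanine and aspartate gave different calls. Gpt, the cytosolic alanine aminotransferase, stood at 224, 313 and 303 TPM in the WT saline mice, 211, 252 and 262 TPM in the KO saline mice, 121, 103, 115 and 66.7 TPM in the WT ConA mice and 77.7, 74.3, 104 and 92.9 TPM in the KO ConA mice. All ConA mice were below the saline mice, and Gpt fell in both genotypes (-1.48 ± 0.22, adjusted p = 0.000416 in WT and -1.47 ± 0.14, adjusted p = 6.78e-06 in KO livers). Got1, the cytosolic aspartate aminotransferase, stood at 229, 237 and 235 TPM in the WT saline mice, 251, 214 and 249 TPM in the KO saline mice, 167, 281, 108 and 138 TPM in the WT ConA mice and 336, 279, 266 and 319 TPM in the KO ConA mice. In WT livers 3 ConA mice were below and replicate 2 above the saline mice (-0.52 ± 0.27, adjusted p = 0.14), and without replicate 2 Got1 was called lower (-0.78, adjusted p = 0.006). In KO livers all 4 ConA mice were above the saline mice (0.33 ± 0.12, adjusted p = 0.035). Beside rescaling, that KO call was also lost without KO saline replicate 2 (adjusted p = 0.151) and without KO ConA replicate 1 (0.0933) or 4 (0.0889). The serum activity of both enzymes serves as a sign of liver damage, while the values here are mRNA in the liver.

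The 3 genes of proline and ornithine fell in both genotypes. Prodh, the proline dehydrogenase, stood at 157, 161 and 156 TPM in the WT saline mice, 180.4, 208 and 165 TPM in the KO saline mice, 44.5, 42.3, 46.9 and 31.2 TPM in the WT ConA mice and 31.6, 26.9, 47.5 and 38.5 TPM in the KO ConA mice. The saline mice were all far above the ConA mice, and Prodh fell in both genotypes (-1.93 ± 0.15, adjusted p = 1.13e-05 in WT and -2.34 ± 0.18, adjusted p = 1.2e-06 in KO livers). Oat, the ornithine aminotransferase of pericentral hepatocytes, stood at 1014, 2329 and 2353 TPM in the WT saline mice, 761, 1284 and 873 TPM in the KO saline mice, 522, 858, 326 and 664 TPM in the WT ConA mice and 700.3, 605, 553 and 749 TPM in the KO ConA mice. WT saline replicate 1 was far below replicates 2 and 3. Oat fell in both genotypes (-1.67 ± 0.37, adjusted p = 0.00452 in WT and -0.55 ± 0.18, adjusted p = 0.0207 in KO livers), the latter without a call when KO saline replicate 2 (adjusted p = 0.0999) or KO ConA replicate 3 (0.0511) was left out. Aldh4a1, which completes proline breakdown, changed by -1.50 ± 0.22 (adjusted p = 0.000435) and -0.76 ± 0.15 (adjusted p = 0.00114), and 55.0% of its stretches occur in no other gene. Aass, the 1 lysine gene, opens the main route of lysine breakdown. Aass stood at 131, 169 and 172 TPM in the WT saline mice, 135, 128 and 139.5 TPM in the KO saline mice, 208, 199, 82.9 and 182 TPM in the WT ConA mice and 238, 221, 135 and 216 TPM in the KO ConA mice. The WT mice overlapped (0.02 ± 0.30, adjusted p = 0.967). In KO livers Aass rose (0.56 ± 0.18, adjusted p = 0.0179), with 3 ConA mice above and replicate 3 within the saline mice, and without KO saline replicate 2 the call was lost (adjusted p = 0.0552).

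**Figure D3:**
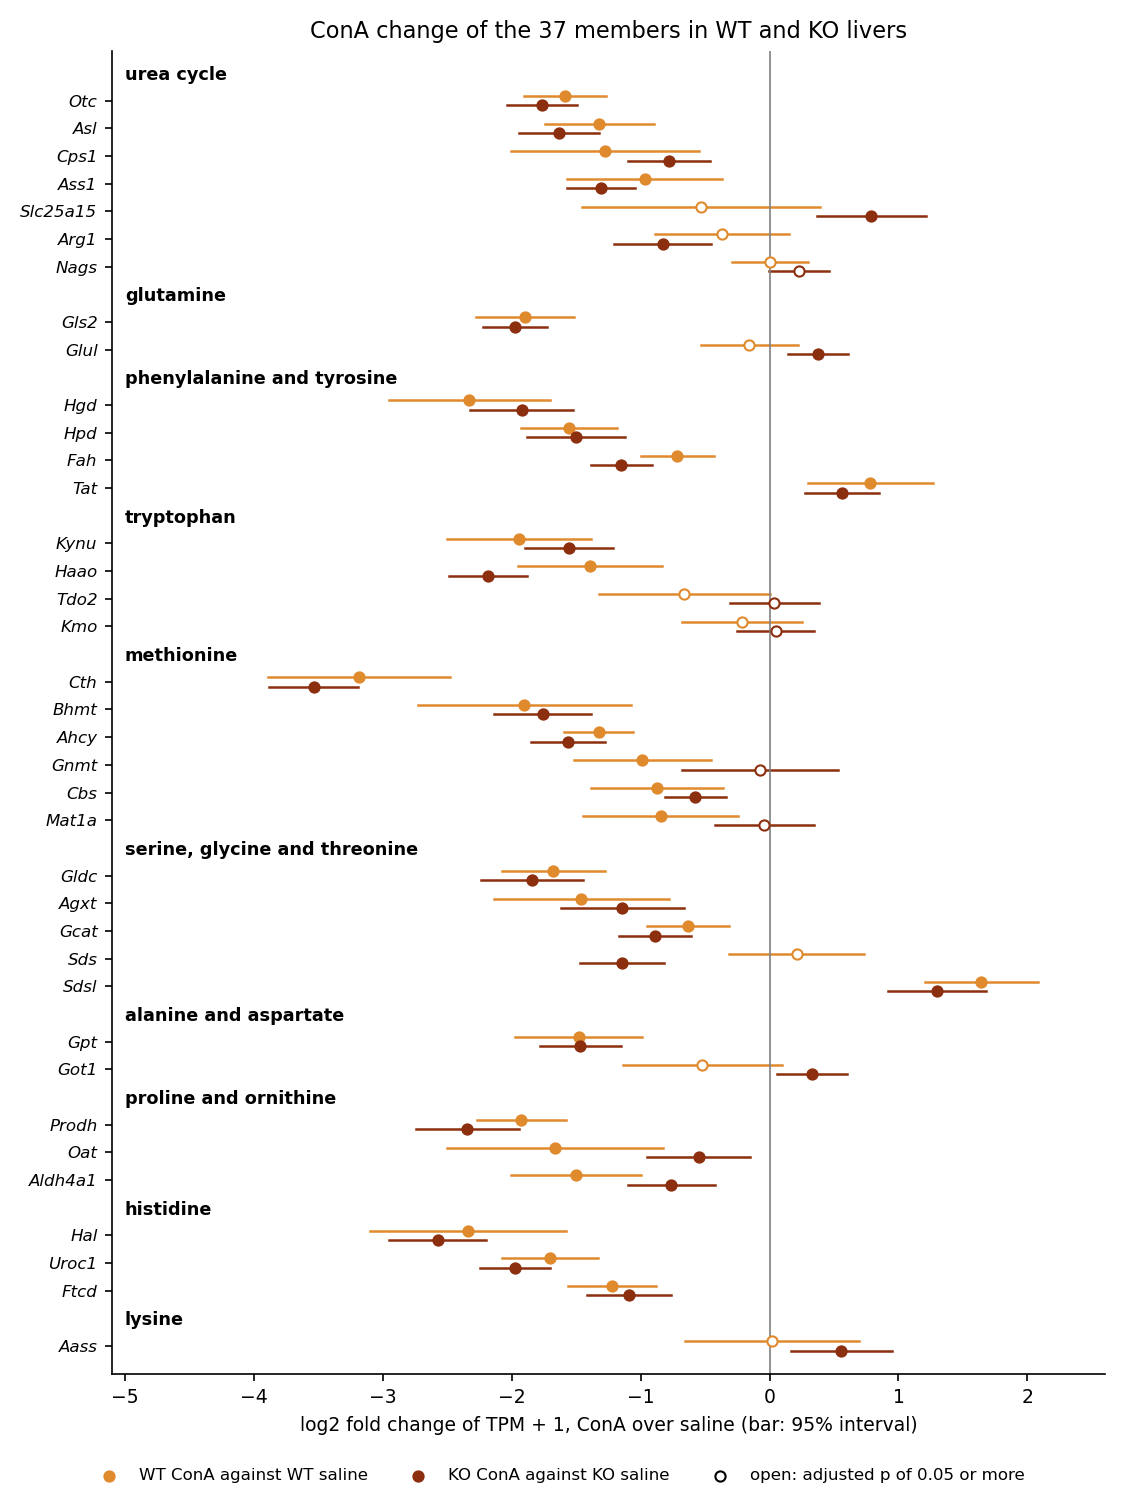
Log2 fold change of TPM + 1 after ConA for each of the 37 genes by pathway, in WT (orange) and KO (brown) livers, with the 95% interval as a bar and open points where the adjusted p was 0.05 or more. The values run from -3.54 for Cth in KO livers to 1.64 for Sdsl in WT livers, and Sds is the gene whose 2 intervals lie farthest apart.

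Between the saline mice, 4 of the 37 genes were called in KO against WT, when 19.2% of 10459 genes were called, 6.3% higher and 12.9% lower. Sds was higher in KO livers (0.53 ± 0.14, adjusted p = 0.0372), and Tdo2 (-0.43 ± 0.10, adjusted p = 0.0302), Kynu (-0.26 ± 0.07, adjusted p = 0.049) and Gnmt (-0.74 ± 0.19, adjusted p = 0.04) were lower. The 3 KO mice lay without overlap below the 3 WT mice for 5 members, against 29.2% of all genes, and above them for 7, against 13%. With WT saline replicates 2 and 3 averaged, 0 of the 37 genes were called, and 0 without WT saline replicate 2, WT saline replicate 3, KO saline replicate 1 or KO saline replicate 2. Without WT saline replicate 1, 12 were called, 10 of them lower. The direction also depended on scaling. After rescaling, the calls were 3 higher and 0 lower (Arg1, Haao and Sds), and the share of higher calls over all genes went from 32.8% to 61.7% as the median over all genes moved from -0.10 to near 0. Of the 37 genes, 10 had an unadjusted p under 0.05, a smaller share than the 4056 of all 10459 genes tested. For 34 of the 37 genes the 95% interval lay within 1 of 0 on the log2 scale.

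Between the ConA mice, limma called 0 of the 37 genes in KO against WT, when 0.428% of 10519 genes were called (45 genes, 80% of them higher, and after rescaling 29 genes, 58.6% of them higher). At an unadjusted p under 0.05 stood 1753 of all 10519 genes tested, a share near that of the 37 genes. Of the 37 genes, 7 had an unadjusted p under 0.05, and they were Slc25a15, Fah, Haao, Ahcy, Cth, Sds and Got1. The intervals say how large a difference could have been missed. For 29 genes the 95% interval lay within 1 of 0 on the log2 scale, with a median half-width of 0.46 over the 37 genes. The smallest adjusted p was that of Sds, at 284 to 397 TPM in KO ConA and 431 to 855 TPM in WT ConA livers, without overlap (-0.82 ± 0.21, adjusted p = 0.0984, 95% interval -1.29 to -0.35). Got1 was at 266 to 336 TPM in KO ConA and 108 to 281 TPM in WT ConA livers (0.87 ± 0.24, adjusted p = 0.116, interval 0.33 to 1.41). Slc25a15 had the largest difference (1.08 ± 0.37, adjusted p = 0.183, interval 0.26 to 1.89). The groups did not overlap for Sds, Fah and Ahcy, all lower in KO livers, against 4.11% of all genes. With all 14 libraries in the fit, Sds (adjusted p = 0.0224) and Got1 (0.0247) were called, and without WT ConA replicate 2 Got1 was called (0.0483).

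A different response to ConA in the 2 genotypes was tested as an interaction over all 14 mice, which called 1 of the 37 genes and 4.78% of 11327 genes, 2.64% higher and 2.14% lower. The median over all genes was 0.14. That gene was Sds, whose change was lower in KO than in WT livers (-1.35 ± 0.29, adjusted p = 0.028, 95% interval -1.98 to -0.73). It started from a higher saline level in KO mice and ended at a lower ConA level. After rescaling Sds remained called (-1.53, adjusted p = 0.0351). The call was lost with WT saline replicates 2 and 3 averaged (adjusted p = 0.0963), and also without WT saline replicate 2 (0.0957) or 3 (0.101), KO saline replicate 1 (0.0872) or 2 (0.0569), or KO ConA replicate 4 (0.0554). Without WT ConA replicate 2, Slc25a15 (1.70) and Got1 (1.11) were also called. Without WT ConA replicate 4, Ass1 (-0.62) and Haao (-1.03) were, and without WT saline replicate 1, Glul (0.70) and Oat (1.52). Of the 37 genes, 10 had an unadjusted p under 0.05, a share near that of all genes (2862 of 11327). For 19 of the 37 genes the 95% interval lay within 1 of 0.

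**Figure D4:**
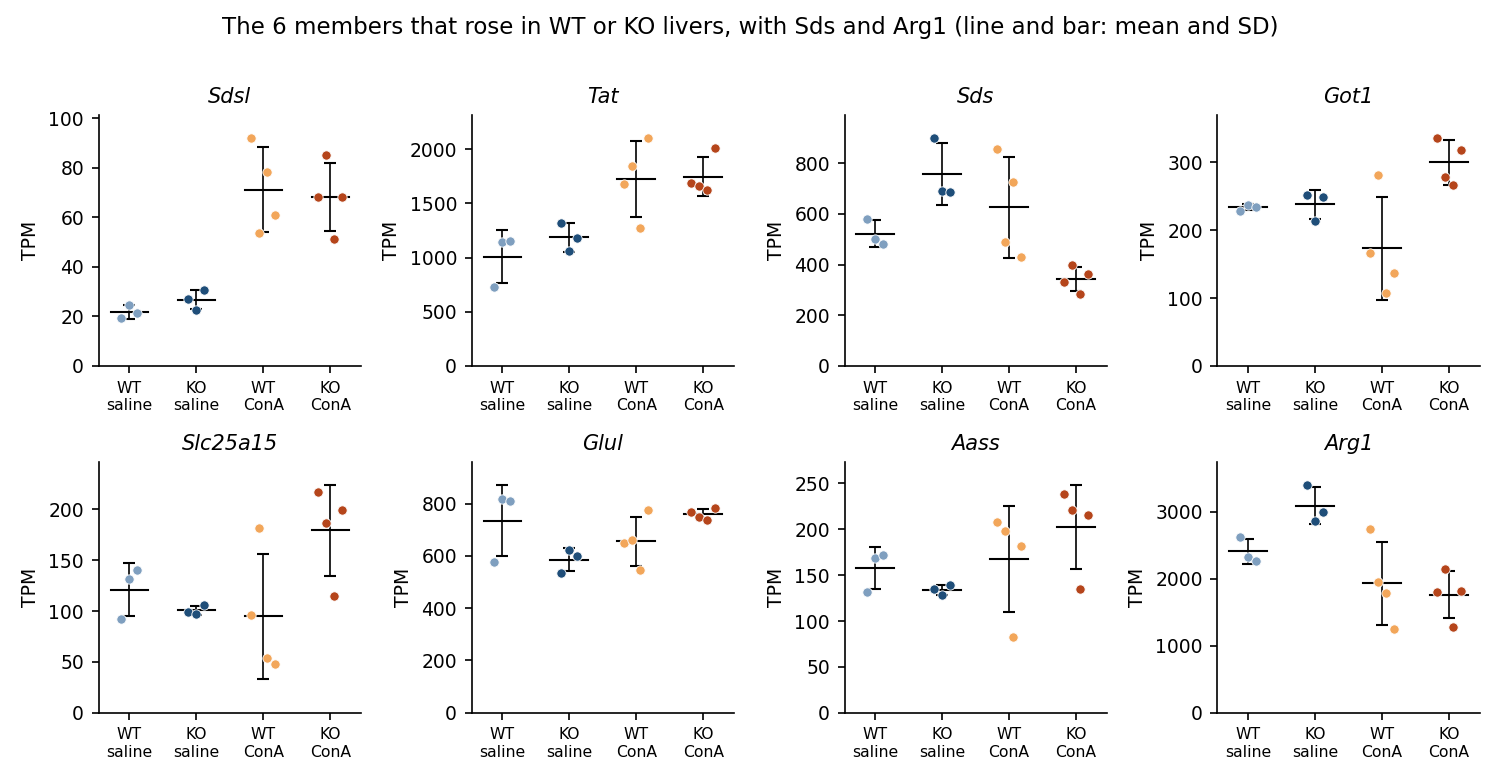
TPM in each of the 14 livers by group for the 6 genes that rose in WT or KO livers after ConA (Sdsl, Tat, Got1, Slc25a15, Glul and Aass), and for Sds and Arg1, with the mean as a line and the SD as a bar. Sds is at 284 to 397 TPM in the 4 KO ConA mice and at 431 to 855 TPM in the 4 WT ConA mice, the reverse of the saline mice, where KO is higher.

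Of 61 other enzymes of amino acid breakdown tested, 51 fell and 2 rose after ConA in WT livers, and 51 fell and 2 rose in KO livers, with median log2 fold changes of -1.21 and -1.10. The share that fell, 83.6% in both, stood against 31% and 30.7% of all genes. Etnppl, which breaks down phosphoethanolamine, was at 96.0 to 129 TPM with saline and 4.61 to 8.07 TPM with ConA in WT mice (-3.95 ± 0.19, adjusted p = 7.53e-07). Afmid, which makes kynurenine between the steps of Tdo2 and Kmo, gave -2.73 ± 0.13 (adjusted p = 7.66e-07), and Shmt1, the cytosolic serine hydroxymethyltransferase, -2.53 ± 0.27 (adjusted p = 5.81e-05).

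Of the genes that draw on arginine or ornithine for other products or that make amino acids, 17 were tested in WT livers, where 8 rose and 4 fell, and 18 in KO livers, where 11 rose and 3 fell. The shares that rose, 47.1% and 61.1%, stood against 22% and 33.9% of all genes. Some of these genes, such as Nos2, Asns and Phgdh, were under 1 TPM in every saline mouse and passed the filter only through ConA mice. The filter favored a rise in such genes, so these shares are not a result about the list. Nos2, the inducible nitric oxide synthase, which takes arginine from the cycle, was at 0.02 to 0.06 TPM with saline and 26.2 to 45.5 TPM with ConA in WT mice, and at 0.00 to 0.06 and 21.9 to 54.4 TPM in KO mice. Its log2 fold change of TPM + 1 was 5.15 ± 0.19 (adjusted p = 1.78e-07) in WT and 5.09 ± 0.26 (adjusted p = 8.07e-08) in KO livers, a scale that understates the change of a gene this low in saline mice. Arg2, the second arginase, was at 0.57 to 1.43 TPM in WT mice with ConA and was not tested there, and gave 1.18 ± 0.25 (adjusted p = 0.0019) in KO livers. In KO mice Arg2 was at 0.06 to 0.18 TPM with saline and 0.63 to 2.83 TPM with ConA, so it was tested only because it was higher with ConA. Gamt, which makes creatine from guanidinoacetate, gave -2.12 ± 0.30 (adjusted p = 0.000353) in WT livers, and Gclm, of glutathione synthesis, -1.79 ± 0.19 (adjusted p = 5.58e-05).

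Odc1, which turns ornithine into putrescine, is named after its values were seen. It stood at 17.5, 30.7 and 29.1 TPM in the WT saline mice, 21.2, 16.9 and 25.7 TPM in the KO saline mice, 88.2, 73.2, 52.4 and 58.2 TPM in the WT ConA mice and 139, 123, 186 and 145 TPM in the KO ConA mice. The KO ConA mice were all above the WT ConA mice, and Odc1 was the 1 gene of these lists called in KO ConA against WT ConA (1.13 ± 0.19, adjusted p = 0.0369), beside an interaction of 1.37 ± 0.31 (adjusted p = 0.0319). After rescaling neither was called (adjusted p = 0.0625 and 0.0539), and with WT saline replicates 2 and 3 averaged the interaction was not (0.104). Also named after their values were seen are Asns, Phgdh and Psat1, which make asparagine and serine and rose in WT livers (log2 fold changes of 1.74, 1.29 and 1.32) and in KO livers (1.99, 1.52 and 1.60). All were under 1 TPM in every saline mouse, so they were tested only because they were higher with ConA.

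Of 19 transporters tested in WT livers, mostly of amino acids, 10 fell and 3 rose (52.6% and 15.8%, against 31% and 22% of all genes). Of 21 tested in KO livers 7 fell and 9 rose (33.3% and 42.9%, against 30.7% and 33.9%). The share that fell in KO livers was thus near that of all genes. Slc7a1 and Slc7a5 were under 1 TPM in every KO saline mouse and passed the filter there only through ConA mice. The filter favored a rise in such genes, so the share that rose is not a result about the list. Aqp9, which lets urea and glycerol pass, gave -3.00 ± 0.20 (adjusted p = 4.5e-06) in WT livers, Slc38a4, a carrier of neutral amino acids, -2.15 ± 0.20 (adjusted p = 2.78e-05), and Slc6a13 -1.92 ± 0.16 (adjusted p = 1.47e-05). Slc7a2, the carrier of arginine and ornithine into hepatocytes, was at 87.1 to 99.0 TPM with saline and 25.8 to 70.4 TPM with ConA in WT mice (-0.97 ± 0.29, adjusted p = 0.0194), and gave -0.35 ± 0.24 (adjusted p = 0.217) in KO mice. Of 23 regulators of these pathways 10 fell and 4 rose in WT livers, and 7 fell and 9 rose in KO livers. The shares called, 60.9% and 69.6%, were near those of all genes, 53% and 64.6%. The nuclear receptor Nr1i3 was at 195 to 196 TPM with saline and 4.81 to 6.28 TPM with ConA in WT mice (-4.95 ± 0.13, adjusted p = 3.38e-08). The transcription factor Cebpd was at 4.64 to 5.37 and 37.4 to 51.0 TPM (2.85 ± 0.15, adjusted p = 9.81e-07), and the mitochondrial deacetylase Sirt3 at 95.8 to 98.9 and 17.4 to 25.1 TPM (-2.14 ± 0.14, adjusted p = 4.38e-06). Of the liver factors that are known to drive urea cycle genes, Cebpa gave -0.59 ± 0.18 (adjusted p = 0.0183) in WT and -0.28 ± 0.13 (adjusted p = 0.0808) in KO livers, Cebpb 1.17 ± 0.11 (adjusted p = 3.7e-05) and 0.87 ± 0.16 (adjusted p = 0.000662), and Hnf4a 0.21 ± 0.17 (adjusted p = 0.347) and 0.33 ± 0.14 (adjusted p = 0.0539).

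Of 20 hepatocyte genes outside amino acid metabolism, among them albumin, apolipoproteins and cytochromes P450, 15 fell and 2 rose in WT livers and 15 fell and 4 rose in KO livers. The share of these hepatocyte genes that fell, 75% in both genotypes, stood against 31% of all genes in WT and 30.7% in KO livers. The 20 summed to 189507 to 216296 TPM with saline and 110832 to 136151 TPM with ConA in WT mice, and to 196293 to 215430 and 107494 to 120524 TPM in KO mice. Neutrophil markers rose in 9 of 10 tested in each genotype (90%, against 22% of all genes in WT and 33.9% in KO livers). They summed to 9.8 to 12.0 TPM with saline and 331 to 582 TPM with ConA in WT mice, and to 6 to 11.4 and 428 to 988 TPM in KO mice. Ly6g did not rise, at 0.57 to 5.04 TPM with saline and 0.18 to 1.64 TPM with ConA in WT mice. Others, such as Ngp and Retnlg, were under 1 TPM in every saline mouse and passed the filter only through ConA mice, so the filter favored their rise. Of the 12 listed, Mpo and Elane, which mark immature neutrophils, reached at most 0.26 TPM in any liver. Kupffer cell markers fell in 9 of 11 in WT livers (81.8%, against 31% of all genes) and in 3 of 11 in KO livers, where 1 rose. The share of Kupffer cell markers that fell in KO livers, 27.3%, was near that of all genes, 30.7%. Called or not, 9 of the 11 had a log2 fold change below 0 in KO livers, with a median of -0.75. Adgre1 was under 1 TPM in every WT ConA mouse and passed the filter there only through saline mice, which favored its fall. Calls in 1 genotype alone do not show that the genotypes differ. The interaction called 0 of the 11 Kupffer cell markers, against 4.78% of all genes. These markers summed to 138 to 236 TPM with saline and 27.7 to 102 TPM with ConA in WT mice, and to 65.8 to 149 and 24.7 to 93.4 TPM in KO mice. Of the T cell and NK cell markers, 2 of 2 tested in WT and 2 of 3 tested in KO livers rose, Nkg7 and Gzmb in both. The shares that rose, 100% and 66.7%, stood against 22% and 33.9% of all genes. Gzmb was at 0.05 to 0.61 TPM with saline in WT mice and under 1 TPM in every KO saline mouse. Nkg7 stood at 1.05, 0.42 and 0.42 TPM in the WT saline mice and 1.06, 0.72 and 0.69 TPM in the KO saline mice. Both genes passed the filter only through ConA mice, in both genotypes. The filter favored their rise, so these T cell and NK cell shares are not a result about the list. Cd3e, Cd3d, Cd4 and Cd8a were too low to be tested. The sums were at most 21.8 TPM over the 10 in the tables, and Cd4 and Klrb1c were listed at 0 in at least 1 liver. Sinusoidal endothelial markers fell in 3 and rose in 2 of 8 tested in WT livers and fell in 5 and rose in 2 of 9 in KO livers, with sums of 24.9 to 34.4 and 20.1 to 45.8 TPM in WT and 40.8 to 67.6 and 23.8 to 53.3 TPM in KO mice. In WT livers the endothelial shares, 37.5% lower and 25% higher, were near those of all genes, 31% and 22%. In KO livers they were 55.6% and 22.2%, against 30.7% and 33.9%. Kdr and Ptprb were under 1 TPM in every KO ConA mouse and passed the filter there only through saline mice. Lyve1 was under 1 TPM in every WT saline mouse and passed there only through ConA mice. The filter favored a change in such genes, so the endothelial shares are not a result about the list. The part of these other cells in the lower levels of the 37 genes was not tested.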

How the data were processed

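Liver RNA of 14 mice was read by the authors on a BGISEQ-500 (single-end, 50 bases). The study's methods name STAR and HTSeq, and the submitters' processing notes name Bowtie2, RSEM 1.3.1 and GRCm38.p6. The authors deposited 1 table of TPM per mouse, which sums to about 1000000 over 17656 genes. TPM keeps no read depth, so no counting error is given and the number of mice limits the precision. Groups came from the sample labels. Log2(TPM + 1) was fitted in R 4.3.3 with limma 3.58.1 and its trended eBayes. A gene was tested where its TPM reached 1 in as many mice as the smaller group holds. Two-group comparisons used the mice of those groups, and the interaction used all 14. The fit was tested on simulated data. The 37 genes and all lists were chosen with earlier results of these data known. Values are given per mouse for the urea cycle genes, for the 2 genes of each other pathway with the largest WT change, and for genes called between genotypes. Of the other lists, the 3 called genes with the largest WT change are named, beside Nos2, Arg2, Slc7a2, Cebpa, Cebpb and Hnf4a, and 1 further gene of that rule is not reported here. Exceptions are marked in the text. Shared sequence was counted in GENCODE vM21 transcripts. As alternatives, the pseudocount was set to 0.1, the filter to TPM of 5 or dropped, TPM rescaled per mouse, eBayes made robust, changes under 1 (log2) set aside, replicate numbers added as a block, all mice fitted together, WT saline replicates 2 and 3 averaged, and single mice left out.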

Additional observations from a re-analysis of the deposited data

Results flagged for a closer look

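In each group of 4 ConA mice, a mouse was listed here when its gap to the next one took up most of the range of the group, by Dixon's 95% bound. Of 116 groups checked over the members and lists 6 had such a mouse, where chance gives about 1 in 20. Ass1 stood at 1192 TPM in WT ConA replicate 4, against 2490.2 to 2742 TPM in the other WT ConA mice, and Gcat at 29.8 TPM in the same mouse against 38.6 to 40.4 TPM. Haao stood at 245 TPM in KO ConA replicate 3 against 174 to 183 TPM. WT ConA replicate 1 had the highest summed levels of the arginine side routes and amino acid synthesis genes (732 against 540.3 to 568 TPM), the Kupffer cell markers (102 against 27.7 to 31.0 TPM) and the sinusoidal endothelial markers (45.8 against 20.1 to 22.0 TPM). Sds is listed because its response to ConA differed between the genotypes by the interaction, at -1.35 on the log2 scale.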

How the results depend on the processing

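Of 3182 values of single members under the alternatives, 3068 kept their side of the threshold, 81 lost a call and 33 gained one. A change of sign was counted only where the main or the alternative fit called the gene, and 0 such reversals were found. Some uncalled members did change sign, such as Tdo2 in KO ConA against KO saline (-0.059 to 0.163). In WT ConA against WT saline, 27 to 30 members were called with single mice left out, and over all genes a log2 fold change of at least 1 left 2607. In KO ConA against KO saline, that bound left 21 members and 3453 genes.

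KO saline against WT saline gave 1 member and 958 genes without a filter, 0 and 173 with the log2 bound, 0 and 332 with all 14 libraries, and 0 and 49 with WT saline replicates 2 and 3 averaged. With single mice left out it gave 0 to 12 members and 45 to 2739 genes. KO ConA against WT ConA called 3 genes without a filter, 29 rescaled, 140 with the replicate block and 640 (2 members) with all 14 libraries, and 0 to 1 members and 5 to 52 genes with single mice left out. The interaction called 345 genes without a filter, 260 with the log2 bound, 358 with the replicate block, 28 (0 members) with WT saline replicates 2 and 3 averaged and 1591 without replicate 3 of both ConA groups. With single mice left out it called 0 to 3 members and 22 to 769 genes. These causes were not tested.

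The replicate numbers were not taken to pair the mice. The 19 correlations of same-numbered mice ran from -0.256 to 0.488, and no pair of groups had all above 0.1, so the replicate block is given here and not in the report. The highest was between replicate 3 of WT ConA and replicate 3 of KO ConA. Whether some same-numbered mice shared a batch was not tested. With the block, 29 members were called in WT and 30 in KO livers after ConA, the latter without Glul (adjusted p = 0.0765) and Got1 (0.13), and Tdo2 was gained in WT livers (0.0412). Depth could not be weighed from TPM.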

Other observations

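Of 123 genes tested in the 4 lists of neighboring pathways, 8 were called by the interaction (6.5%, near the 4.78% of all genes), all with a change after ConA that was higher in KO than in WT livers. Over all genes the median interaction was 0.14, and 55.3% of the calls were higher. After rescaling, 48.2% were higher, and of the 8 genes 2 remained called, Foxa3 and Trib1. With WT saline replicates 2 and 3 averaged 28 of all genes were called, and of the 123 Foxa3 alone. The 8 were the enzymes Pccb (0.80), Agxt2 (0.85), Odc1 (1.37) and Sat1 (1.32), the ammonia channel Rhbg (1.02), and the regulators Foxa3 (1.50), Crtc2 (0.62) and Trib1 (1.21), as log2 differences. These genes are named after their values were seen. Against WT saline, all but Odc1 were called lower in KO saline, and Odc1 alone was called in KO ConA against WT ConA. Foxa3 stood at 33.8, 44.1 and 40.3 TPM in the WT saline mice, 18.1, 18.5 and 16.9 TPM in the KO saline mice, 82.7, 100.4, 65.1 and 82.4 TPM in the WT ConA mice and 109.6, 98.5, 113 and 115 TPM in the KO ConA mice. Sat1, which acetylates polyamines made through Odc1, stood at 97.0, 105 and 98.6 TPM in the WT saline mice, 68.8, 61.5 and 65.3 TPM in the KO saline mice, 226, 124, 85.9 and 180.4 TPM in the WT ConA mice and 199.7, 213, 261 and 281 TPM in the KO ConA mice. In both genes the 3 KO saline mice were below the 3 WT saline mice.

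The mice of the WT ConA group varied most. The median SD of log2(TPM + 1) over the 37 genes was 0.43 among the 4 WT ConA mice, 0.23 among the 4 KO ConA mice, 0.17 among the 3 WT saline mice and 0.13 among the 3 KO saline mice. Over 11327 genes it was 0.27, 0.23, 0.11 and 0.14. The member with the largest SD was Slc25a15 in WT ConA (0.87), Gnmt in KO ConA (0.59) and Oat in both saline groups (0.70 in WT and 0.39 in KO).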
